A study of Mus musculus with 4 samples.

Results

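The genes described here are 9 mouse genes of interferon signalling and MHC class I antigen presentation, measured by RNA-seq in embryonic telencephalon. They were taken by symbol from the deposited expression table, which lists 30637 genes, and all 9 had a row. B2m, H2-K1, H2-D1 and Tap1 belong to the class I antigen presentation pathway. Stat2 and Irf9 are transcription factor subunits of the interferon pathway, and Bst2, Ifitm2 and Ifitm3 are interferon-inducible antiviral genes. With a filter on the mean over the 4 libraries of at least 1 FPKM (fragments per kilobase of exon, scaled to the mapped fragments of the library), 8 of the 9 entered the tests and Tap1 did not.

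Poly(A) RNA came from telencephalic tissue of C57BL/6 mouse embryos at embryonic day 13, in 2 libraries per group. The Pd1CKO libraries, numbered 1 and 2, are labelled as conditional knockouts of Pd1, the gene symbol of which is Pdcd1 and which encodes the T cell inhibitory receptor PD-1. The control libraries, also numbered 1 and 2, are labelled wild type in their titles and Pd1fl/fl, that is, with floxed Pd1 alleles, in the design text. The Cre driver, the deleted exons and what the numbers 1 and 2 stand for are not given in the sources used here. P-values therefore measure only the spread between these samples.

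Interferons bind receptors that signal through JAK kinases to STAT proteins. STAT2 and IRF9 are subunits of the ISGF3 complex, which binds interferon-stimulated response elements and turns on antiviral genes and the genes of class I antigen presentation. On the cell surface, class I molecules are a heavy chain, such as the products of H2-K1 and H2-D1, bound to the light chain beta-2-microglobulin and to a peptide that the TAP transporter carried into the endoplasmic reticulum. In the developing and adult brain class I molecules have been studied on neurons as well as on blood vessel cells and microglia.

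Promoter sequences of 6 members are printed, chosen with their values known (given further on). They are 2 pairs of related genes, H2-K1 with H2-D1 and Ifitm3 with Ifitm2, and also B2m and Bst2, both lower in the libraries numbered 2. Stat2, which was higher in those libraries and also holds a match, is not printed, nor are Tap1 and Irf9. Each runs 5′ to 3′ from 250 bases before to 50 bases after the RefSeq transcription start on GRCm38.p6. Capitals mark matches to GAAANNGAA, the core of the element bound by interferon regulatory factors, or to TTCNNNGAA, the GAS element bound by STAT dimers. Both strands were searched, so the first also appears as TTCNNTTTC, and the second is its own reverse complement.
B2m promoter, chr2:122147437-122147736, plus strand: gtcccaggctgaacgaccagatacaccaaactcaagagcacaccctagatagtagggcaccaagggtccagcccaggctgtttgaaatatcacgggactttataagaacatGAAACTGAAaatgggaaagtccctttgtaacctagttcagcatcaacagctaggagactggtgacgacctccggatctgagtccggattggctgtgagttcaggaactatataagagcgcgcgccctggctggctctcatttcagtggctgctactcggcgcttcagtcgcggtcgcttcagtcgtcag
Bst2 promoter, chr8:71537423-71537722, minus strand: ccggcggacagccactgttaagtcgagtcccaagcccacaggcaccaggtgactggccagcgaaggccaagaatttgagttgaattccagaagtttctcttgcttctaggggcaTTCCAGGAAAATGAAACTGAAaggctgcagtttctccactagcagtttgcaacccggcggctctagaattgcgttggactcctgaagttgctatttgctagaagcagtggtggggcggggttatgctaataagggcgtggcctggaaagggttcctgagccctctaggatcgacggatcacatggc
Ifitm3 promoter, chr7:141010695-141010994, minus strand: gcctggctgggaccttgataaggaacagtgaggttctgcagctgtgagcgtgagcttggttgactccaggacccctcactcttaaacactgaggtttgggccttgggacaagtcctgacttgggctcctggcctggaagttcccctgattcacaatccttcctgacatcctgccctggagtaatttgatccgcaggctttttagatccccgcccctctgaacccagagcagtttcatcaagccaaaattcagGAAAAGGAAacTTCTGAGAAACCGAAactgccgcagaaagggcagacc
Ifitm2 promoter, chr7:140955912-140956211, minus strand: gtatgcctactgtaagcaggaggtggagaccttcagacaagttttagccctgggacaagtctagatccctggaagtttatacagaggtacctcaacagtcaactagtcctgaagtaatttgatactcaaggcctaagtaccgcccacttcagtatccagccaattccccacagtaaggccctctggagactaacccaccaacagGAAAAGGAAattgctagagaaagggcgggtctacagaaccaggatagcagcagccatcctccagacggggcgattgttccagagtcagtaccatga
H2-K1 promoter, chr17:34000298-34000597, minus strand: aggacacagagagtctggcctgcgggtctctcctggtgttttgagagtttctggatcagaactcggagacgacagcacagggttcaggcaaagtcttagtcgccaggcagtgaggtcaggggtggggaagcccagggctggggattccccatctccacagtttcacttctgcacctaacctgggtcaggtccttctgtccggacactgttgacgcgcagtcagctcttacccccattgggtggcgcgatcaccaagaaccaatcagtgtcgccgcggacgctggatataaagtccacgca
H2-D1 promoter, chr17:35262844-35263143, plus strand: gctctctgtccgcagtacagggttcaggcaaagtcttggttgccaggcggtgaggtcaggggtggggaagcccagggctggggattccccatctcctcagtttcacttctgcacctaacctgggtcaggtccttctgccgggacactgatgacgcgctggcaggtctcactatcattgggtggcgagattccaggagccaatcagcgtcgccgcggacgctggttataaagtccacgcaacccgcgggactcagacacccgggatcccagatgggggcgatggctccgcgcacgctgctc

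All 9 members had a RefSeq promoter, and 5 of them held GAAANNGAA. H2-K1 and Irf9 had 2 windows each, and 1 of those of H2-K1 is printed. Counted by window, 5 of 11 held a match, against 8.56% of the 32851 promoters of the same length. Positions are those of the first base of a match relative to the transcription start. B2m had it at -139, Ifitm2 at -46 and Stat2 at -221. Bst2 had overlapping matches at -130 and -124, and the first of them overlaps a GAS match at -136. Ifitm3 had matches at 3 and 20 after the start, with a GAS match at 14 that overlaps the second. TTCNNNGAA was found in these 2 members, that is, in 2 of the 11 windows, and in 8.30% of all promoters. No match to either was in the windows of H2-K1, H2-D1, Tap1 and Irf9. Only these 2 patterns were searched, so this does not show that those promoters lack an interferon response element. Both heavy chain windows hold the letters cagtttcacttctg, in which the blocks of TTCNNTTTC stand in the opposite order, a spelling that was not searched. The printed H2-K1 and H2-D1 windows were 88.3% identical (211 of 239 aligned bases), and those of Ifitm3 and Ifitm2 64.5% identical (142 of 220). A match is a description of the letters and not evidence of binding.

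Depth recovered from the FPKM steps was 16200000 to 18740000 fragments per library. Pdcd1, the targeted gene, was at 0 in Pd1CKO 2, 0.416 FPKM (13 fragments) in control 2, 0 in Pd1CKO 1 and 0 in control 1. A count of 0 allows up to 3 fragments, so the target gene did not separate the genotypes. Across 13927 tested genes the Pearson correlation of log2(FPKM + 1) was 0.987 between the libraries numbered 2, 0.978 between those numbered 1, and 0.912 to 0.916 across numbers. Pd1CKO 2 also stood apart in sex-linked genes named after their values were seen, with Ddx3y at 9.48 FPKM and Xist at 0.00308 FPKM, whereas Ddx3y was at 0 in the other 3 libraries and Xist was between 34.7 and 61.2 FPKM in them. The telencephalon markers were present in every library. Neurod6, a transcription factor of cortical neurons, had 351 FPKM in Pd1CKO 2 and 346 FPKM in control 2. It had 134 FPKM in Pd1CKO 1 and 129.9 FPKM in control 1. In the test by library number below, Neurod6 was the 1 marker of 10 called higher in number 2, and 6 were called lower. Emx1 of these 6, named after its values were seen, had 16.3 and 13.8 FPKM in Pd1CKO 2 and control 2. Its values in Pd1CKO 1 and control 1 were 65.2 and 54.1 FPKM. Of all tested genes 17.2% were called higher in number 2 and 19.4% lower.

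Between Pd1CKO and control, no member passed the test. The comparison asks whether these genes change when Pd1 is deleted. In limma fitted on log2(FPKM + 1) of all 13927 tested genes, 0 of the 8 tested members and 0 genes in all (0%) had a Benjamini-Hochberg adjusted p under 0.05, and 47 genes had an unadjusted p under 0.05. The adjusted p was 0.9998 for each tested member. With limma-voom on the recovered fragments there were also 0 calls, and 57 genes had an unadjusted p under 0.05. Genotype was the only term in these fits, so their error includes the difference between library numbers. The same holds for the SE of each genotype difference given below. With library number as a block, 5 genes passed and no member did, with adjusted p by limma from 0.959 to 0.984. The median difference (Pd1CKO minus control) was 0.05 on the log2 scale over the 8 members and 0.02 over all tested genes. The values of Ifitm2 in Pd1CKO lay below both control values, which makes 1 of 8 members lower without overlap, against 6.14% of all tested genes. None of the 8 was higher without overlap, against 8.37% of all tested genes.

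**Figure D1:**
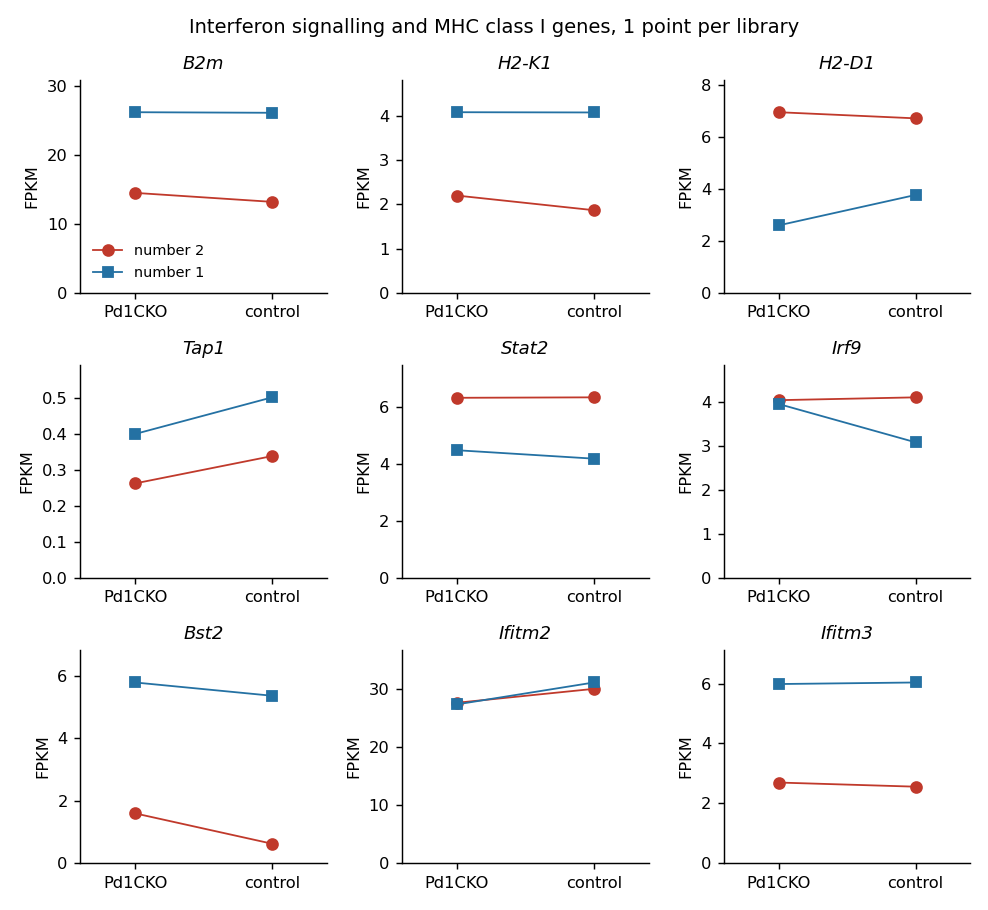
FPKM (vertical axes, each from 0) of the 9 members in the 4 libraries, with Pd1CKO left and control right in every panel and a line joining libraries of the same number. In the B2m, H2-K1, Bst2, Ifitm3 and Tap1 panels both number 1 points lie above both number 2 points, for H2-D1, Stat2 and Irf9 they lie lower, and the Ifitm2 points lie together between 27.3 and 31.1 FPKM.

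The second factor in the labels is the library number. Number 2 against number 1, with genotype as a covariate, gave lower values for 4 of the 8 tested members and higher values for 2, while 2 did not pass the test. Bst2, Ifitm3, B2m and H2-K1 were the lower genes, and H2-D1 and Stat2 the higher ones. The same test called 19.4% of all 13927 genes lower in number 2 and 17.2% higher, so a call in this comparison is common. The median difference (number 2 minus number 1) was -0.38 over the members on the log2 scale and 0.03 over all tested genes. A rescaling of the FPKM to a common sum (TPM) moved the median of all tested genes by 0.12 on the log2 scale and the share of called genes that were higher to 61.3%, against 47.0% without it. Each of the 6 member calls kept its direction under it.

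The limit of these 6 calls lies in the filter. Without the filter on low values, with 30637 genes tested and the spread estimated over all of them, B2m kept an adjusted p of 0.0455 by limma. In that fit the other 5 missed the threshold, with adjusted p between 0.0541 for Bst2 and 0.118 for Stat2. What separates the number 2 from the number 1 libraries is not given in the labels.

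The class I light chain B2m, at chr2:122147686-122153083 on mm10, was among the most abundant members. It had 14.5 FPKM in Pd1CKO 2, 13.2 FPKM in control 2, 26.3 FPKM in Pd1CKO 1 and 26.2 FPKM in control 1. The genotypes overlapped and the numbers did not overlap. Means were 20.4 ± 8.30 FPKM in Pd1CKO and 19.7 ± 9.16 FPKM in controls (SD, n = 2 each), a difference of 0.07 ± 0.45 (SE) on the log2 scale. Number 2 was lower than number 1 by a log2 difference of -0.87 ± 0.12 (SE, adjusted p = 0.00141 by limma). As a ratio of FPKM with its exact 95% counting interval, number 2 over number 1 was 0.553 (0.468 to 0.651) in Pd1CKO and 0.505 (0.422 to 0.602) in controls.

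H2-K1, at chr17:33996017-34000333, encodes the classical class I heavy chain K. It had 2.20 FPKM in Pd1CKO 2, 1.87 FPKM in control 2, 4.09 FPKM in Pd1CKO 1 and 4.09 FPKM in control 1. The values of the 2 number 1 libraries were nearly equal, and both number 2 libraries were below them. The genotype difference was 0.08 ± 0.41 and the number difference -0.75 ± 0.15 on the log2 scale (SE, adjusted p = 0.00686 by limma). B2m and H2-K1 kept a close ratio in all libraries. The product of H2-D1 is also a partner of beta-2-microglobulin, and H2-D1 did not follow B2m, as described next. B2m was 6.59 times H2-K1 in Pd1CKO 2, 7.06 times in control 2, 6.41 times in Pd1CKO 1 and 6.40 times in control 1, per length.

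H2-D1, at chr17:35262730-35267499, encodes the classical heavy chain D and went the other way. Its FPKM was 6.94 in Pd1CKO 2, 6.70 in control 2, 2.59 in Pd1CKO 1 and 3.76 in control 1. Both number 2 libraries were above both number 1 libraries, and the genotypes overlapped. The number difference was 0.92 ± 0.15 on the log2 scale (SE, adjusted p = 0.00364 by limma). The genotype difference was -0.18 ± 0.49. Pd1CKO over control was 1.04 (0.879 to 1.22) in number 2 and 0.688 (0.544 to 0.870) in number 1, with 125 fragments in Pd1CKO 1 and 180 in control 1. These intervals cover counting error only, and each ratio rests on a single library per genotype.

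The proportion of the 2 classical heavy chains to each other lay apart in the 2 numbers. H2-K1 over H2-D1 was 0.317 in Pd1CKO 2 and 0.279 in control 2, against 1.58 in Pd1CKO 1 and 1.09 in control 1. The sum of both was 9.14, 8.57, 6.68 and 7.85 FPKM in Pd1CKO 2, control 2, Pd1CKO 1 and control 1. Reads of these genes can be hard to assign. The H2-K1 transcript aligned to H2-D1 with 91.3% identity over 1050 bases, and 38 other genes matched H2-K1 and 36 matched H2-D1 over at least 200 bases at 80% identity or more. The sources used here do not say how reads with several matches were counted, so the split between these chains is uncertain.

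Other class I heavy chain genes were examined beside them, and 3 of the 5 that were tested were higher in number 2, with 0 lower. Of all tested genes 17.2% were called higher in number 2 and 19.4% lower. Whether this short list differs from those shares was not tested. H2-T22, a non-classical chain, had 2.52 FPKM in Pd1CKO 2, 2.55 FPKM in control 2, 0.547 FPKM in Pd1CKO 1 and 0.930 FPKM in control 1 (number difference 1.03 ± 0.18 on the log2 scale, adjusted p = 0.00387 by limma). A stretch of 328 bases of H2-D1 was 92.7% identical to H2-T22. H2-M5 had 7.51, 7.96, 5.04 and 5.34 FPKM in Pd1CKO 2, control 2, Pd1CKO 1 and control 1, and was also called higher in number 2. The third was H2-T24, named after its values were seen, with 1.87 and 1.75 FPKM in Pd1CKO 2 and control 2 and 0.881 and 0.691 FPKM in Pd1CKO 1 and control 1. H2-T23, the mouse Qa-1 heavy chain recognised by natural killer cell receptors, had 1.74, 1.65, 1.77 and 2.12 FPKM in the same order and did not pass. None of the 5 passed the genotype test.

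**Figure D2:**
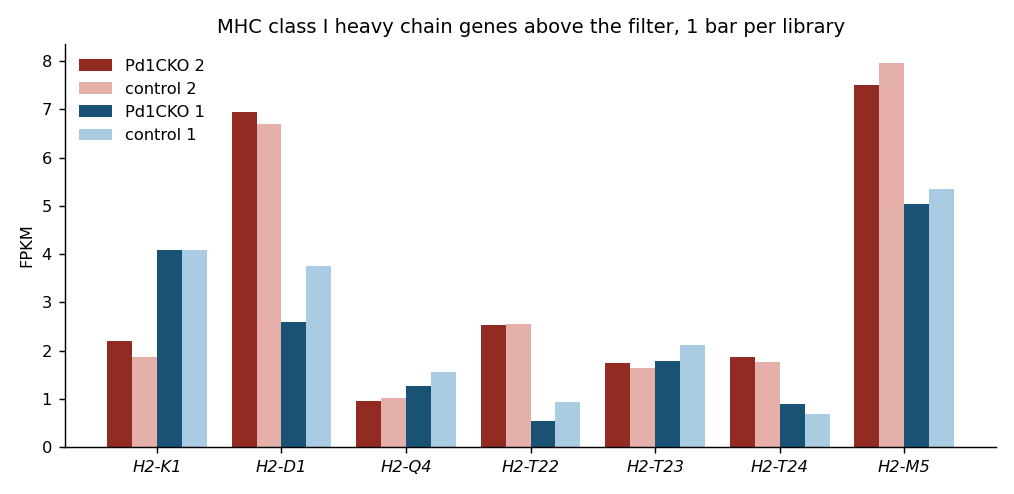
FPKM (vertical axis, from 0) of the 7 class I heavy chain genes above the filter, with 1 bar per library in the order Pd1CKO 2, control 2, Pd1CKO 1, control 1. H2-K1 is higher in the number 1 libraries, at 4.09 FPKM in both, whereas H2-D1, H2-T22, H2-T24 and H2-M5 are higher in the number 2 libraries.

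Tap1, at chr17:34187553-34197225, encodes a subunit of the peptide transporter and was the scarcest member. Its level was 0.262 FPKM (26 fragments) in Pd1CKO 2, 0.338 FPKM (30 fragments) in control 2, 0.400 FPKM (41 fragments) in Pd1CKO 1 and 0.501 FPKM (51 fragments) in control 1. Within each number Pd1CKO was the lower library, but the 95% counting interval of the ratio included 1 in both, at 0.440 to 1.36 in number 2 and 0.515 to 1.23 in number 1. Tap2, its partner subunit, named after its values were seen, was between 0.127 and 0.228 FPKM. Of the 7 other peptide loading genes 5 were tested. For the calls by number given next, the shares over all tested genes were 17.2% higher in number 2 and 19.4% lower. Calr and Canx, chaperones of the endoplasmic reticulum, did not pass, and Pdia3, the thiol oxidoreductase ERp57 of the loading complex, was lower in number 2. It had 73.6, 73.1, 93.2 and 97.3 FPKM in Pd1CKO 2, control 2, Pd1CKO 1 and control 1 (log2 difference -0.37 ± 0.12, adjusted p = 0.0428 by limma). Of the 3 tested immunoproteasome genes Psme2, a subunit of the proteasome activator PA28, was lower in number 2, at 16.4, 17.1, 22.2 and 27.2 FPKM in that order, and Psme1 and Psmb10 did not pass. Of the 3 tested genes of class I transactivation Rfxap, a subunit of the RFX factor, was lower in number 2, at 10.8, 11.4, 19.2 and 21.3 FPKM. Nlrc5, the class I transactivator, named after its values were seen, was under 0.1 FPKM in every library.

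Stat2, at chr10:128270559-128292849, encodes the STAT protein of ISGF3 that is particular to type I and type III interferon signalling. It had 6.33 FPKM in Pd1CKO 2, 6.34 FPKM in control 2, 4.49 FPKM in Pd1CKO 1 and 4.19 FPKM in control 1. Libraries of the same number lay close together, with number 2 above number 1 (log2 difference 0.46 ± 0.13, adjusted p = 0.0281 by limma). The Pd1CKO to control ratio was 0.997 (0.893 to 1.11) in number 2 and 1.07 (0.942 to 1.22) in number 1. These intervals rest on 461 to 679 fragments per library, and both include 1.

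Irf9, at chr14:55603571-55610030, encodes the DNA-binding partner of STAT2. Its FPKM was 4.05 in Pd1CKO 2, 4.12 in control 2, 3.96 in Pd1CKO 1 and 3.09 in control 1. A single library, control 1, was below the other 3, and neither the number difference (0.17 ± 0.15, adjusted p = 0.383 by limma) nor the genotype difference (0.13 ± 0.22) passed. In number 1 the Pd1CKO to control ratio was 1.28 (1.10 to 1.49), and in number 2 it was 0.984 (0.851 to 1.14). Irf9 shares 123 exon bases (2.28% of its exons) with Rnf31 on the same strand.

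Upstream of ISGF3, 2 of the 4 tested receptor genes were higher in number 2 and 0 lower, against 17.2% higher and 19.4% lower of all tested genes. Ifngr2, the signalling chain of the interferon gamma receptor, had 25.1 FPKM in Pd1CKO 2 and 25.7 FPKM in control 2, against 11.3 FPKM in Pd1CKO 1 and 13.5 FPKM in control 1 (0.98 ± 0.12 on the log2 scale, adjusted p = 0.00101 by limma). Ifnar1, a chain of the type I interferon receptor, had 16.2, 16.7, 13.1 and 10.5 FPKM in that order and also passed, whereas its partner chain Ifnar2 did not, at 5.19 to 5.71 FPKM. Among 5 tested signal transduction genes Jak2 and Jak1 were higher in number 2 and Irf3, a factor that induces interferon after nucleic acid sensing, was lower. Irf3 had 12.04, 12.7, 19.1 and 19.9 FPKM and Jak2 15.4, 15.9, 9.42 and 8.20 FPKM in Pd1CKO 2, control 2, Pd1CKO 1 and control 1.

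Of the 3 tested negative regulators Socs3, an inhibitor of JAK signalling, was lower in number 2, at 3.95, 3.08, 6.13 and 7.11 FPKM in the same order, and Ptpn2 and Pias1 did not pass. Of the 4 tested genes of nucleic acid sensing Adar, which edits double-stranded RNA, was higher in number 2, at 14.4, 13.9, 9.84 and 8.52 FPKM, and Tbk1 and Mavs did not pass. The interferon ligand genes with a row, Ifnk and Ifnz, were at or below 0.0736 FPKM. Over all tested genes, 17.2% were called higher in number 2 and 19.4% lower. None of these receptor, signalling, regulator and sensing genes passed the genotype test.

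Bst2, at chr8:71534255-71537456, encodes tetherin, which holds budding virus particles at the cell surface. It had 1.59 FPKM (26 fragments) in Pd1CKO 2, 0.615 FPKM (9 fragments) in control 2, 5.79 FPKM (98 fragments) in Pd1CKO 1 and 5.37 FPKM (90 fragments) in control 1. The number 2 libraries were far below the number 1 libraries, with a log2 difference of -1.68 ± 0.18 (adjusted p = 0.000565 by limma), the largest among the tested members. Number 2 over number 1 was 0.275 (0.171 to 0.427) in Pd1CKO and 0.115 (0.0508 to 0.228) in controls. Pd1CKO over control was 2.58 (1.17 to 6.27) in number 2 and 1.08 (0.802 to 1.45) in number 1. The fitted genotype difference was 0.39 ± 0.84, an error that includes the difference between the numbers. With library number as a block it had an adjusted p of 0.959 by limma.

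The Ifitm genes encode small membrane proteins that block entry of enveloped viruses. Ifitm3, at chr7:141009586-141010770, had 2.69 FPKM (33 fragments) in Pd1CKO 2, 2.55 FPKM (28 fragments) in control 2, 5.98 FPKM (76 fragments) in Pd1CKO 1 and 6.04 FPKM (76 fragments) in control 1. Number 2 was below number 1 in both genotypes (log2 difference -0.95 ± 0.13, adjusted p = 0.00178 by limma), and Pd1CKO and control differed by 0.02 ± 0.49. Ifitm2, at chr7:140954837-140955987, had 27.6 FPKM in Pd1CKO 2, 30.0 FPKM in control 2, 27.3 FPKM in Pd1CKO 1 and 31.1 FPKM in control 1.

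Ifitm2 thus showed no separation by number (-0.02 ± 0.11, adjusted p = 0.916 by limma), and this small difference turned positive, 0.11, under TPM and under quantile scaling. Its means were 27.4 ± 0.195 FPKM in Pd1CKO and 30.5 ± 0.776 FPKM in controls (SD, n = 2 each), a log2 difference of -0.15 ± 0.18. The ratio Pd1CKO over control was 0.920 (0.786 to 1.08) in number 2 and 0.879 (0.756 to 1.02) in number 1, so counting error alone spans 1 in each. Ifitm3 was 0.0975 of Ifitm2 in Pd1CKO 2 and 0.0851 in control 2, against 0.219 in Pd1CKO 1 and 0.194 in control 1, per length. Ifitm2 shares 268 exon bases (40.9% of its exons) with Gm45717 on the same strand and is 97.0% identical over 432 bases to the pseudogene Gm11951. None of the 5 other Ifitm genes reached the filter, and Ifitm1 was at 0.555, 0.395, 1.90 and 0.394 FPKM in Pd1CKO 2, control 2, Pd1CKO 1 and control 1.

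**Figure D3:**
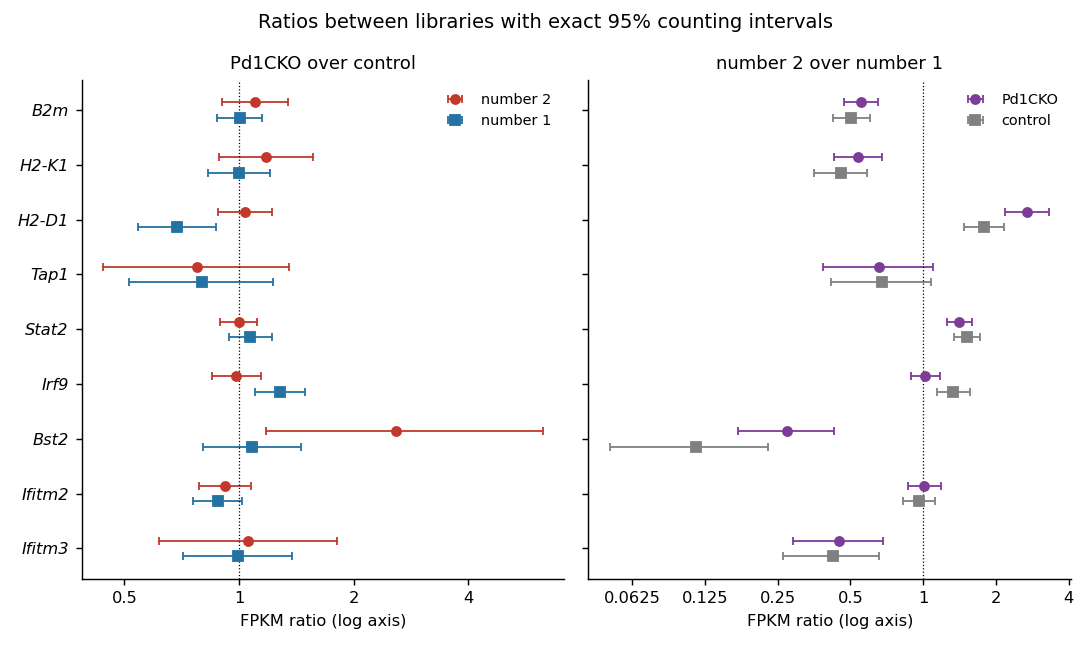
Ratio of FPKM between libraries on a log axis, for each member, with exact 95% counting intervals as bars. The left panel gives Pd1CKO over control within number 2 and number 1, and the right panel gives number 2 over number 1 within Pd1CKO and control. On the left most intervals cross 1, the exceptions being H2-D1 and Irf9 in number 1 and Bst2 in number 2, and on the right those of B2m, H2-K1, Bst2 and Ifitm3 lie below 1 and those of H2-D1 and Stat2 above 1 in both genotypes.

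The wider set of interferon-stimulated effector genes was weakly expressed. Of 40 with a row, 30 had a mean under 1 FPKM, 12 were under 0.1 FPKM, and the median of their means was 0.242 FPKM. The 10 that were tested gave 0 calls in either comparison. Of all tested genes 0% were called between the genotypes, and 17.2% were called higher and 19.4% lower in number 2. The most abundant were Ly6e, at 15.2, 14.4, 13.1 and 13.2 FPKM in Pd1CKO 2, control 2, Pd1CKO 1 and control 1, Ifi30, the lysosomal thiol reductase, at 13.4, 16.2, 12.6 and 9.71 FPKM, and Shisa5, at 7.62, 6.98, 7.62 and 10.3 FPKM. Classical markers of an interferon response, named after their values were seen, were low, with Isg15 at 1.39, 1.47, 2.40 and 1.71 FPKM and Ifit1 and Mx1 each at or below 0.0439 FPKM.

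Over all other interferon and MHC lists together, class II included, 43 of the 117 genes with a row were tested. Between Pd1CKO and control, 0 of the 43 passed, 3 were higher in Pd1CKO without overlap and 2 lower, against 8.37% higher and 6.14% lower of all tested genes, and the median difference was 0.01 on the log2 scale. Between the library numbers, 8 were higher in number 2, 5 lower and 30 did not pass, with a median of -0.03. Of all tested genes 17.2% were called higher in number 2 and 19.4% lower.

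**Figure D4:**
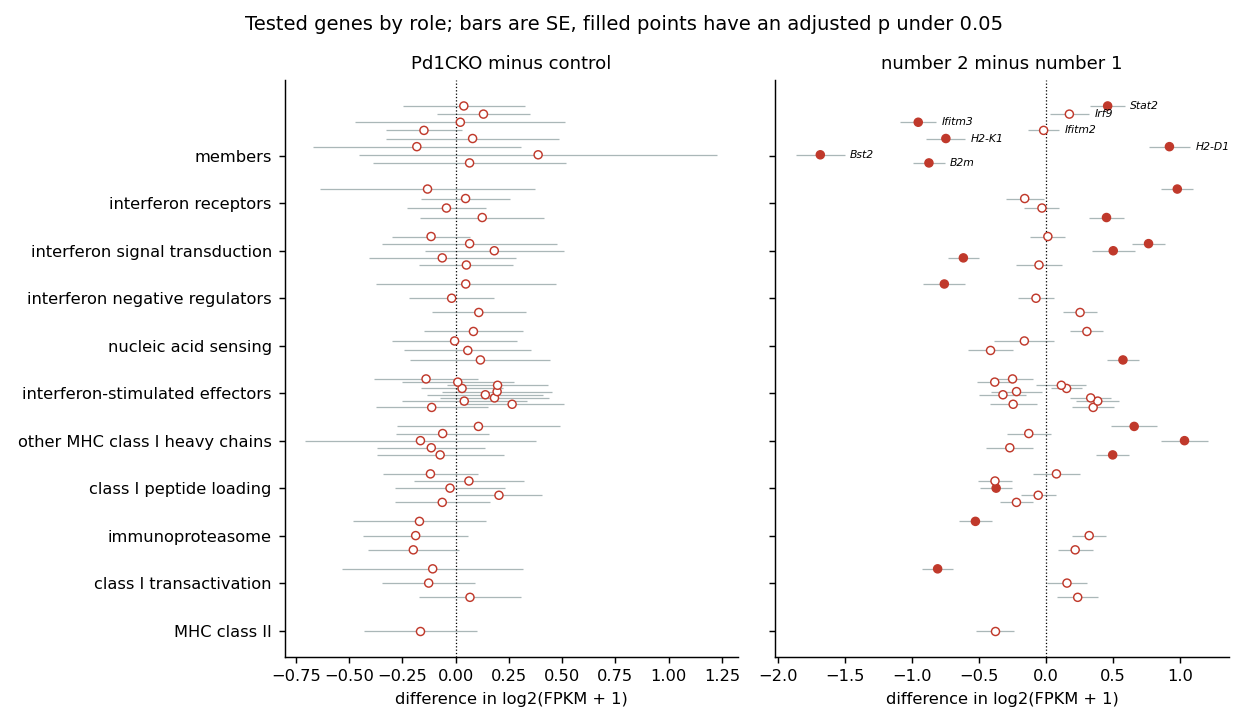
Differences in log2(FPKM + 1) for the tested members (named on the right) and the tested genes of the other pathway lists, 1 point per gene with its SE, for Pd1CKO minus control and for number 2 minus number 1. No point is filled on the left, where filled means an adjusted p under 0.05 by limma, and on the right the 6 called members spread from -1.68 for Bst2 to 0.92 for H2-D1.

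In whole tissue, fewer cells of a type and less RNA per cell cannot be told apart, so marker genes of the cell types that a telencephalic dissection can hold were measured beside the members. Endothelial markers had a summed level of 42.7 FPKM in Pd1CKO 2 and 43.9 FPKM in control 2, against 87.1 FPKM in Pd1CKO 1 and 78.3 FPKM in control 1. Of the 10 tested, 8 were lower in number 2, among them Cldn5, the tight junction gene of brain vessels, at 13.8, 15.2, 28.6 and 28.6 FPKM in that order. Meningeal and mesenchymal markers had summed levels of 6.20, 3.98, 94.6 and 53.0 FPKM, and 7 of the 9 tested were lower in number 2, such as Col3a1 at 0.715 and 0.503 FPKM in Pd1CKO 2 and control 2 against 29.9 and 14.3 FPKM in Pd1CKO 1 and control 1. Microglia and macrophage markers summed to 23.4, 22.5, 34.1 and 28.6 FPKM in the same order, with 3 of 9 lower in number 2. Mural cell markers summed to 38.9, 39.9, 70.7 and 62.0 FPKM, with 3 of 8 lower and 1 higher, and red blood cell markers to 9.81, 10.3, 20.7 and 17.6 FPKM, with 1 of 3 lower. These counts, and those of the next marker lists, stand against 19.4% lower and 17.2% higher of all tested genes.

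Choroid plexus markers did not follow the number alone. Their sums were 345, 21.7, 279 and 209 FPKM in Pd1CKO 2, control 2, Pd1CKO 1 and control 1, with Ttr, the transthyretin gene, at 325, 17.0, 246 and 182 FPKM, and 3 of 6 passed as lower in number 2. T lymphocyte markers summed to 2.88, 3.81, 2.72 and 3.16 FPKM, and 6 of the 8 were below 0.2 FPKM in every library. Nearly all of each sum was Lck, at 2.11, 2.66, 2.10 and 1.75 FPKM, and Trbc2, at 0.639, 1.07, 0.386 and 0.934 FPKM. Markers of the telencephalon itself summed to 731, 717, 738 and 685 FPKM, with 6 of 10 lower and 1 higher in number 2. No marker gene of any list passed the genotype test.

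The share of these cell types in the number differences of the members was not tested. A ratio to the summed endothelial marker FPKM was chosen after the values were seen, and no other list was used. The mural, red blood cell, meningeal and microglia sums were also lower in both number 2 libraries than in both number 1 libraries. This ratio therefore cannot tell these cell types apart. B2m amounted to 34.0% of the endothelial sum in Pd1CKO 2, 30.1% in control 2, 30.1% in Pd1CKO 1 and 33.4% in control 1. H2-K1 amounted to 5.16, 4.26, 4.70 and 5.22% and Ifitm3 to 6.29, 5.81, 6.87 and 7.70% in the same order. For Bst2 it was 3.72% in Pd1CKO 2 and 1.40% in control 2, against 6.65% in Pd1CKO 1 and 6.85% in control 1, so Bst2 was lower in number 2 relative to these markers as well. For H2-D1 the same quantity was 16.2% in Pd1CKO 2 and 15.3% in control 2, against 2.97% in Pd1CKO 1 and 4.80% in control 1, and for Stat2 it was 14.8% and 14.5%, against 5.15% and 5.35%.

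**Figure D5:**
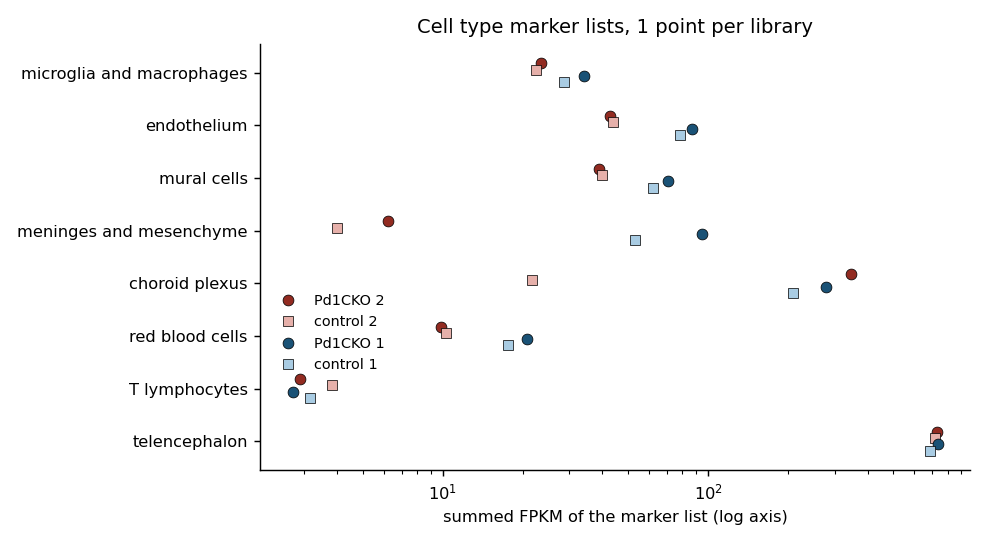
Summed FPKM of each cell type marker list (horizontal log axis), with 1 point per library, circles for Pd1CKO and squares for control, number 2 in red and number 1 in blue. The number 2 libraries lie left of the number 1 libraries for endothelium, mural cells, meninges, red blood cells and microglia, control 2 stands alone at 21.7 FPKM for choroid plexus, and the telencephalon sums lie together between 685 and 738 FPKM.

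The tested genes with the profile nearest to the mean of the 8 tested members over the 4 libraries were Traf2, Lamtor2, Frmd8, Chic2 and Litaf. Likeness was the Euclidean distance between centred log2(FPKM + 1) profiles, and it was 0.0102 for Traf2 and up to 0.0304 for Litaf. Traf2 had 5.13, 4.61, 6.37 and 6.44 FPKM in Pd1CKO 2, control 2, Pd1CKO 1 and control 1. With 4 libraries and members that moved in both directions, this mean profile is shallow, at -0.11, -0.23, 0.16 and 0.18 on the log2 scale in that order.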

How the data were processed

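The unit was taken to be FPKM calculated by the authors: the deposited table holds 1 value per gene and library without a unit in its header, and multiplied by exon-union length (Gencode M21, 99.8% of genes matched) 97.3% to 97.5% of values below 200 fragments are whole within 0.1. Per the submitters' processing notes, mm10, FastQC, fastp, HISAT2, TopHat, StringTie and featureCounts were used, without versions. The sources used here do not state the strand setting of the counting.

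Depth came from the size of 1 FPKM step per library. Genotype was fitted as the only term, and library number with genotype as covariate, by limma 3.58.1 (limma-trend, R 4.3.3) on log2(FPKM + 1) for the 13927 genes averaging 1 FPKM or more, with Benjamini-Hochberg adjustment at 0.05. The fits were also run on simulated data, but the outcome is not reported here and no support is drawn from it. Folds on this scale understate those of low genes. Ratios have exact 95% intervals (Clopper-Pearson, conditional on both libraries' fragments), which cover counting error only. Python 3.11.15, scipy 1.17.1, pandas 2.3.3, matplotlib 3.10.9 and BLAST 2.17.0 (at least 80% identity) were used.

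The genes and lists were chosen with earlier results of these data known. Named genes were the 9 members, genes of other lists past the genotype test (0 passed), the 3 most abundant of each pathway list, the 2 most abundant of each marker list, the 5 nearest profiles and Pdcd1; others are said to be named after their values were seen. Alternatives were a pseudocount of 0.1 FPKM, no filter, TPM, quantile scaling, the replicate block, number as the only term, each library left out, and limma-voom on fragments (at least 10 in 2 libraries).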

Additional observations from a re-analysis of the deposited data

How the results depend on the processing

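The labels do not say that a shared number marks a shared litter, batch or day. The deviations of same-numbered libraries from their group means correlated at 0.80, and with library number as a replicate block the genotype comparison called 5 genes (3 higher, 2 lower) and no member, with 621 genes at an unadjusted p under 0.05. All other settings, each left-out library included, gave 0 genotype calls, with 41 to 130 genes at an unadjusted p under 0.05 and, without a filter, 616. The uncalled genotype differences of 7 members changed sign when a library was left out: B2m ranged from -0.40 to 0.53, H2-K1 from -0.33 to 0.49, H2-D1 from -0.76 to 0.39, Stat2 from -0.21 to 0.29, Irf9 from -0.031 to 0.29, Bst2 from -0.60 to 1.38 and Ifitm3 from -0.47 to 0.52. A left-out library makes the library numbers uneven between the genotypes, so these shifts carry the number difference. They do not measure how stable the genotype difference itself is. Quantile scaling gave -0.0092 for Stat2 and -0.029 for Ifitm3. In the number comparison 5099 genes passed, 851 without the filter on low values (29.8% of them higher, against 47.0%), 5667 under TPM and 6839 with limma-voom. Ifitm2 changed sign in it under TPM (0.11) and quantile scaling (0.11). Leaving out a library leaves that comparison no residual degrees of freedom, and its differences within 1 genotype kept their direction for the 6 called members, for example 0.70 to 1.15 for H2-D1. Members with under 100 fragments per library (Bst2, Ifitm3, Tap1) are limited by depth.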

Other observations

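MHC class II genes, which present peptides taken up from outside the cell and are made mainly by professional antigen-presenting cells, were weakly expressed beside class I. Of 7 genes with a row, H2-DMa, which helps to load peptide onto class II molecules, reached the filter, at 2.29 FPKM in Pd1CKO 2, 2.63 FPKM in control 2, 3.22 FPKM in Pd1CKO 1 and 3.81 FPKM in control 1. It passed neither the genotype test nor the number test (adjusted p = 0.0732 by limma for number). Cd74, the invariant chain, was at 0.235 FPKM in Pd1CKO 2, 0.0438 FPKM in control 2, 0.871 FPKM in Pd1CKO 1 and 1.95 FPKM in control 1, and H2-Ab1, a class II beta chain, at 0.304, 0.0754, 0.946 and 1.48 FPKM in the same order. Both were below the filter and were not tested, and for both the number 2 libraries lay below the number 1 libraries. Cd274, which encodes the PD-1 ligand PD-L1 and is itself interferon-inducible, was at 0.610 FPKM (40 fragments) in Pd1CKO 2, 0.852 FPKM (50 fragments) in control 2, 0.221 FPKM (15 fragments) in Pd1CKO 1 and 0.238 FPKM (16 fragments) in control 1. Both number 2 libraries lay above both number 1 libraries, the genotypes overlapped, and the gene was below the filter and not tested. Cd274 was chosen after its values were seen.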
